A study of Homo sapiens with 12 samples.

Results

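This account covers the E1 and E2 genes, the enzymes that activate and carry ubiquitin and its relatives, in 2 oral cancer cell lines, SCC15 and SCC25, after squamocin or its solvent DMSO. Members were the protein-coding genes whose name is UBA1 to UBA7 or begins with UBE2 and a letter. That rule used gene names only. It found 42 genes in SCC15, where 29657 were listed, and 41 in SCC25, where 31055 were, with 41 in both (6 E1 and 35 E2). UBE2QL1 was listed for SCC15 alone. SCC15 and SCC25 are established lines of human oral squamous cell carcinoma, both labelled wild type. The labels name the treatment ACGs (annonaceous acetogenins, plant polyketides) for 24 h, and the study's methods give the compound as squamocin at 10 µg/mL. The 12 RNA libraries fell into 4 groups of 3, squamocin and DMSO in either line. The labels do not say whether the libraries of a group came from separate cultures, so p-values measure the spread between these libraries, which may be technical.

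An E1 enzyme uses ATP to activate ubiquitin or a ubiquitin-like protein and holds it as a thioester. The modifier then passes to the active-site cysteine of an E2, and an E3 ligase directs the E2 to a substrate. Each modifier has its own entry enzyme: UBA1 and UBA6 activate ubiquitin, UBA2 (with SAE1) activates SUMO, UBA3 (with NAE1) NEDD8 and UBA7 ISG15. Most E2 enzymes carry ubiquitin and differ in the chains they build and the E3 ligases they serve.

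The deposited values are read counts per gene that the authors scaled with a size factor for each library, separately for SCC15 and SCC25, and are called normalised counts. They are not divided by gene length, although the SCC25 columns are headed as FPKM. Libraries held 16665563 to 22748845 reads on genes. SCC15 squamocin replicate 3 stood apart from its group: the SD over genes of its log2 ratio to replicates 1 and 2 was 0.74 and 0.70, against 0.38 between those 2. The SCC15 calls are therefore also given without it. Among the E1 and E2 genes, 31 of 39 were higher in that library than in both others (79.5%, against 50.1% of all genes tested). In SCC25 the same SDs for squamocin replicate 3 were 0.47 and 0.46, against 0.45 between replicates 1 and 2. Even so, 25 of 38 E1 and E2 genes were lower in it than in both others (65.8%, against 40% of all genes tested). Of 10 squamous epithelial markers, 8 averaged at least 10 normalised counts in SCC15 (KRT5 and DSG3 were at or near 0) and 10 in SCC25. The summed leukocyte markers ranged from 323 to 503 with squamocin and 499.9 to 542 with DMSO in SCC15, and from 20.8 to 30 and 330.2 to 424 in SCC25, with PTPRC and CD79A at or near 0 in both lines. The endothelial sum was 66.1 to 77.1 with squamocin and 158 to 178 with DMSO in SCC15, and 19.8 to 36.6 and 231 to 294 in SCC25. The fibroblast sum was lower with squamocin in SCC15 (471 to 482 against 694 to 772) and higher in SCC25 (1065 to 1213 against 761 to 805). Their part in the results was not tested.

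Sequence before the gene start was read for the genes with a RefSeq promoter entry (GRCh38.p14), which 31 of the 42 had. The 4 below are UBA6 and UBE2Z, which act as a pair, and UBA1 and UBE2J1. UBA1 and UBE2J1 were among the 4 genes called higher in SCC15 and lower in SCC25 under the authors' scaling. The other genes called in opposite directions are not shown. Both SCC15 calls were lost in 4 of the 6 fits that left out 1 library. With library totals set equal, the SCC15 values turned to -0.17 and -0.24, and UBE2J1 passed as a fall. Each run is the 250 bases before the start, 5′ to 3′ on the strand of the gene, with matches to the motifs searched in capitals. The starts are those of RefSeq and can lie apart from the gene ends given below.
UBA6 (chr4:67701156-67701405, minus strand): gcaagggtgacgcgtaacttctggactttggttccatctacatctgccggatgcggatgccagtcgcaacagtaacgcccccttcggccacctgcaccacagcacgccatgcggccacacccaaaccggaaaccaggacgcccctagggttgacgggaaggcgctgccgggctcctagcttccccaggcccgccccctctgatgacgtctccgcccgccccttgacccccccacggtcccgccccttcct
UBE2Z (chr17:48908157-48908406, plus strand): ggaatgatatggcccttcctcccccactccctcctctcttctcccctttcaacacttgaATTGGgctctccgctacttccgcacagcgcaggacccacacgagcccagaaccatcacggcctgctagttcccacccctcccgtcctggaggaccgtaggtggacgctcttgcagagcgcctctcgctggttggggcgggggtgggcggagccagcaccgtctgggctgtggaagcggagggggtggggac
UBA1 (chrX:47190597-47190846, plus strand): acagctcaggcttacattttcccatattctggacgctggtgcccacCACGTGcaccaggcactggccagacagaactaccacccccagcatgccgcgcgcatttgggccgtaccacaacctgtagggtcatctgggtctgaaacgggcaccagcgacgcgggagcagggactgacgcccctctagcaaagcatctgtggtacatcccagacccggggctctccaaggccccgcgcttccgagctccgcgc
UBE2J1 (chr6:89352723-89352972, minus strand): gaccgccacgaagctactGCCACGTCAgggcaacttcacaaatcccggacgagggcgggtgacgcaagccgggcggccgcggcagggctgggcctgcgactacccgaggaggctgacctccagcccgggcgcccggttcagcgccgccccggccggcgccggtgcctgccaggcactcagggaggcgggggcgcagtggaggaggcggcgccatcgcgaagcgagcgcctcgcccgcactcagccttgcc

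The motifs were searched on both strands in the 250 bases. UBE2J1 alone held TGACGTGG, the unfolded protein response element, which 0.612% of all 35116 promoters held. Its antioxidant response element (TGACNNNGC) overlaps those bases and was found in 4 of 31 (12.9%, against 10.9% of all). The capitals of UBA1 mark an E-box (CACGTG), which no other of the 31 held (all promoters, 6.34%). Those of UBE2Z mark a CCAAT box, found in 8 of 31 (25.8%, against 32%). The CHR (TTTGAA) was in 3 (9.68%, against 13.3%), including UBE2F and UBE2F-SCLY, whose windows overlap. The C/EBP-ATF response element (TGATGNAAT) and the ER stress element (CCAAT, 9 bases of any kind, CCACG) were in 0 of 31, against 0.888% and 0.074% of all promoters. UBA6 held no match to any of these motifs. A match is a run of letters and not a shown binding site.

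Most E1 and E2 transcripts were higher after squamocin in both cell lines. In SCC15, 24 of the 39 genes tested rose and 1 fell (limma, adjusted p below 0.05 over all genes tested), where 30.9% of all genes rose and 30.0% fell. In SCC25, 28 of 38 rose and 5 fell, where 38.3% and 38.5% of all genes did. A gene was tested where its mean was at least 10 normalised counts. Without SCC15 squamocin replicate 3 all 25 SCC15 calls stood, and UBE2E1, UBE2Q1 and UBE2T joined the genes that rose and UBA3, UBE2J2, UBE2K and UBE2N those that fell. The share of all genes called in that fit was not counted. In bulk RNA, fewer cells and less RNA per cell cannot be told apart. The median log2 fold change was 0.46 in SCC15 and 0.68 in SCC25, against 0.012 and -0.015 over all genes tested. The 3 squamocin libraries lay above the 3 DMSO libraries without overlap for 27 genes in SCC15 and 28 in SCC25, and below for 1 and 5. Over all genes tested, 35.7% and 39.4% were separated upward and 34.9% and 39.6% downward. Of the 38 genes tested in both lines, 20 rose in both (all genes, 22.1%). In limma, 0 fell in both (all genes, 18.6%), and the count was also 0 at an unadjusted p under 0.05 and by edgeR and DESeq2. With equal library totals 9 rose in both and 3 fell in both (UBA2, UBE2G2 and UBE2J1). UBA1, UBA7, UBE2J1 and UBE2L6 rose in SCC15 and fell in SCC25 (all genes, 5.44%), UBE2G1 did the reverse (all genes, 4.66%), 8 rose or fell in SCC25 alone, and UBA2, UBE2J2, UBE2L3, UBE2N and UBE2O passed the threshold in neither.

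**Figure D1:**
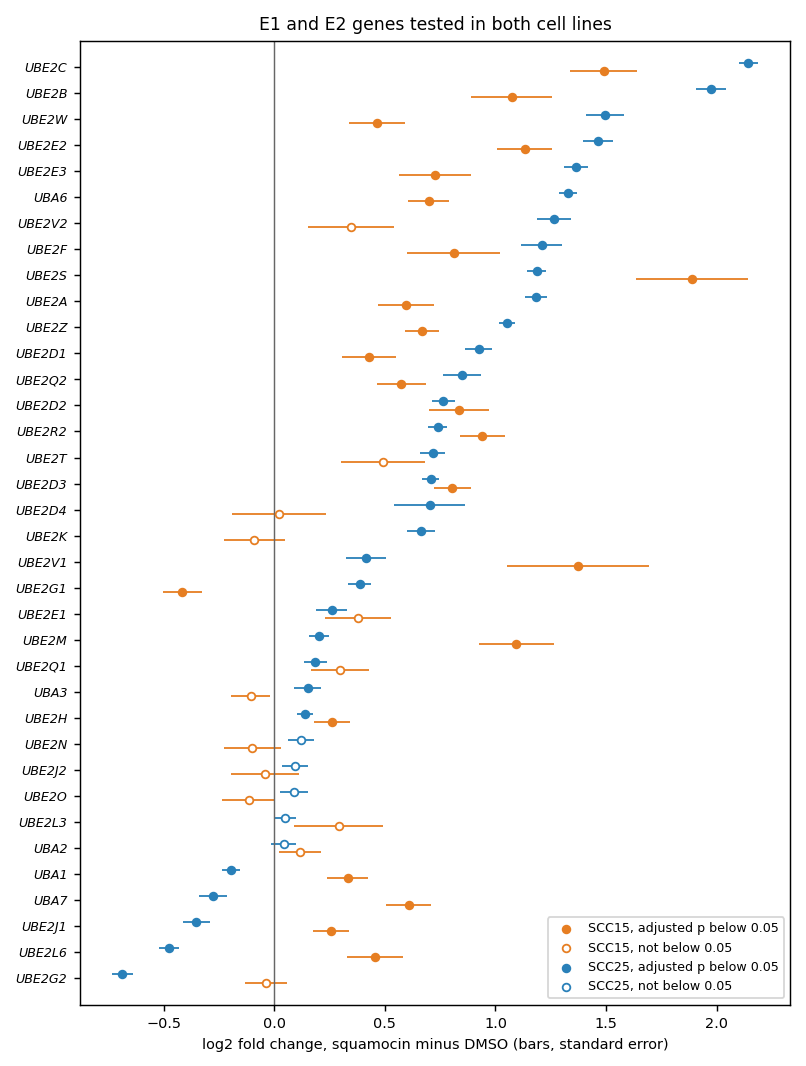
Log2 fold change of E1 and E2 genes tested in both cell lines (horizontal axis, squamocin minus DMSO on log2 of the normalised count plus 1, bars are the standard error, n = 3 libraries per group), ordered by the SCC25 value, with SCC15 in orange and SCC25 in blue and filled points past an adjusted p of 0.05 (limma). UBE2C and UBE2B head the SCC25 order at 2.14 and 1.97, UBE2S leads in SCC15 at 1.89, and the 5 genes at the foot lay below 0 in SCC25.

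The size of these changes depends on how libraries are scaled. Under the authors' size factors the median normalised total of a library was higher with squamocin than with DMSO, 20826159 against 15511759 in SCC15 and 21182014 against 18272805 in SCC25. With library totals set equal, the median of all genes moved by -0.49 in SCC15 and -0.21 in SCC25. The calls among E1 and E2 genes then became 10 higher and 10 lower of 39 in SCC15 (all genes, 14.8% and 50.5%), and 22 higher and 7 lower of 38 in SCC25 (all genes, 30.4% and 47.4%). The SCC15 genes that no longer passed as higher were UBA1, UBA6, UBA7, UBE2A, UBE2D1, UBE2E3, UBE2F, UBE2H, UBE2J1, UBE2L6, UBE2Q2, UBE2V1, UBE2W and UBE2Z, and those of SCC25 were UBA3, UBE2E1, UBE2H, UBE2M, UBE2Q1 and UBE2V1. UBA2, UBA3, UBE2D4, UBE2G2, UBE2J1, UBE2J2, UBE2K, UBE2N and UBE2O joined UBE2G1 as genes called lower in SCC15. UBA2 and UBE2L3 joined those called lower in SCC25. Relative to the median of all genes, the members' median stayed 0.45 above it in SCC15 under the authors' scaling and 0.48 above it with equal totals. The same distances in SCC25 were 0.70 and 0.70. Directions below follow the authors' scaling, and where the value of a named E1 or E2 gene changes sign with equal totals, that value is given beside it. Counts within the groups of related genes below can be read against the shares of all genes that rose and fell, 30.9% and 30.0% in SCC15 and 38.3% and 38.5% in SCC25.

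**Figure D2:**
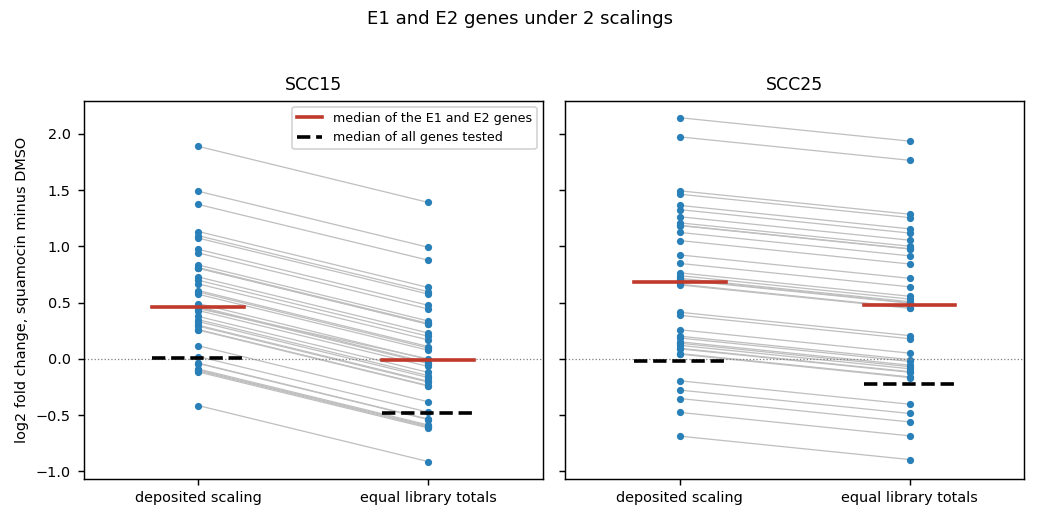
Log2 fold change of each tested E1 and E2 gene (points, squamocin minus DMSO, vertical axis) under the deposited scaling and with equal library totals, joined by a grey line per gene, in SCC15 (39 genes) and SCC25 (38 genes). The members' median (red bar) moved from 0.46 to -0.0059 in SCC15 and from 0.68 to 0.48 in SCC25, and the median of all genes tested (dashed bar) moved by nearly the same amount.

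The E1 enzymes of ubiquitin responded unequally. UBA1, the general ubiquitin E1 (ENSG00000130985; chromosome X, 47190861 to 47215128, plus strand, GRCh38, GENCODE release 44 here and below), measured 16574, 16944 and 15610.3 normalised counts in the squamocin libraries and 12901, 12969.6 and 13150.3 in the DMSO libraries of SCC15, each replicate 1 to 3 in order. All SCC15 squamocin libraries lay above all DMSO libraries, a log2 fold change of 0.33 (limma, adjusted p = 0.0173, standard error 0.094) that turned to -0.17 with equal totals (adjusted p = 0.231). In SCC25, UBA1 measured 5332, 4898 and 5229 normalised counts in the squamocin libraries and 5990.4, 5839.6 and 5859 in the DMSO libraries. There the squamocin libraries lay below every DMSO library and UBA1 fell by 0.20 on the log2 scale (limma, adjusted p = 0.000976, standard error 0.042). The SCC15 call was lost when squamocin replicate 2 or any DMSO replicate was left out (adjusted p = 0.058 to 0.0792, limma); in those fits its value lay between 0.31 and 0.34.

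UBA6 activates ubiquitin and also FAT10, and hands ubiquitin to UBE2Z, an E2 that UBA1 does not charge. UBA6 (ENSG00000033178; chromosome 4, 67612652 to 67701179, minus strand) measured 3843, 3779.8 and 3269 normalised counts in the squamocin libraries and 2245, 2272 and 2176 in the DMSO libraries of SCC15. The SCC25 values were 6856, 7027 and 7383 normalised counts in the squamocin libraries and 2836, 2812 and 2823 in the DMSO libraries. The groups did not overlap in either line, and UBA6 rose by 0.70 in SCC15 (0.77 without squamocin replicate 3, 0.20 and not past the threshold with equal totals) and by 1.33 in SCC25 on the log2 scale (adjusted p = 0.000608 and 2.37e-11, limma). UBE2Z (ENSG00000159202; chromosome 17, 48908369 to 48929056, plus strand) measured 4174, 4178 and 4064 normalised counts in the squamocin libraries and 2539, 2691 and 2594 in the DMSO libraries of SCC15. SCC25 cells gave 8045, 8140.3 and 8076 normalised counts in the squamocin libraries and 3936, 3867 and 3898 in the DMSO libraries. Neither line showed an overlap of the groups, and the ratio of squamocin to DMSO means was 1.59 in SCC15 and 2.07 in SCC25 (log2 fold changes 0.67 and 1.05, adjusted p = 0.00033 and 5.98e-11, limma). With equal totals the SCC15 value was 0.17 and did not pass (adjusted p = 0.18, limma).

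Within a library, the ratio of UBA6 to UBA1 normalised counts does not depend on the size factor. It was 0.209 to 0.232 in the squamocin libraries and 0.166 to 0.175 in the DMSO libraries of SCC15, and 1.29 to 1.44 and 0.473 to 0.482 in SCC25. The groups were separated in both lines, and the log2 ratio shifted by 0.37 in SCC15 and 1.52 in SCC25 (p = 0.1 in each, two-sided exact permutation test, the smallest p that 3 against 3 libraries allow). Per kilobase of exon, UBA1 remained the more abundant in SCC15 with squamocin (2544 against 318 normalised counts per kb) and in SCC25 (801 against 621), where with DMSO the levels were 916 and 248. The ratio of UBE2Z to UBA6 overlapped between groups in SCC15 and was lower with squamocin in SCC25 (1.09 to 1.17 against 1.38 to 1.39, p = 0.1, exact permutation test). Of the ubiquitin precursors they activate, RPS27A rose in both lines, while UBB rose in SCC15 (1.12) and fell in SCC25 (-0.15, a call lost in 5 of the 6 fits that left out 1 library).

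**Figure D3:**
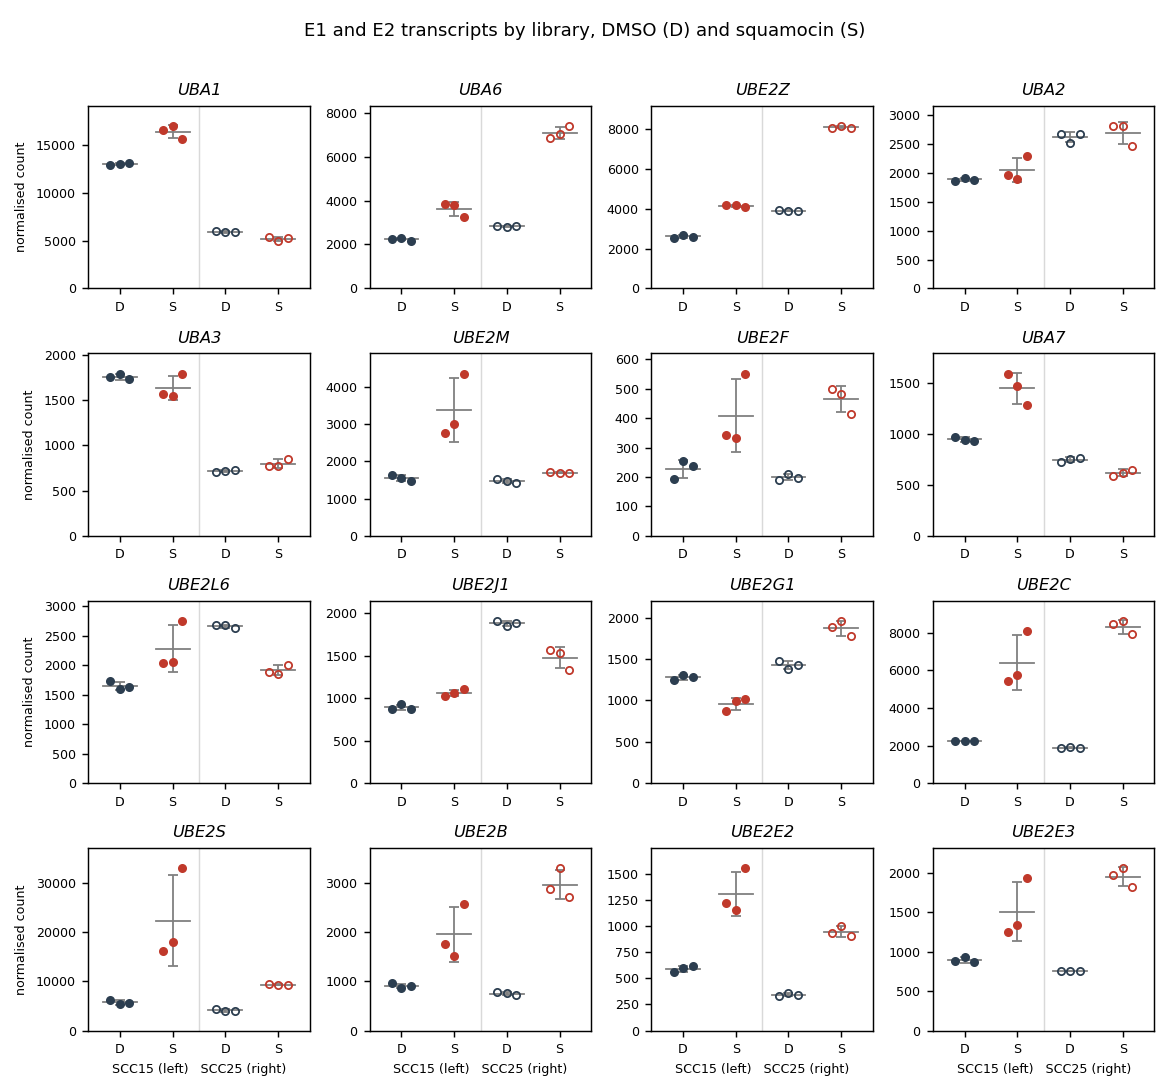
Normalised counts by library (vertical axis, starting at 0) of selected E1 and E2 genes in DMSO (D, dark) and squamocin (S, red) libraries of SCC15 (filled) and SCC25 (open), replicates 1 to 3 from left to right within each group, with the mean (line) and SD (bar, n = 3). UBA6 and UBE2Z were higher with squamocin in both lines, UBA1, UBA7, UBE2L6, UBE2J1 and UBE2G1 moved in opposite directions, and SCC15 squamocin replicate 3 lay far above replicates 1 and 2 for UBE2S, UBE2M and UBE2B.

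In the SUMO pathway UBA2 passed the threshold in neither line. UBA2, the catalytic subunit of the SUMO E1 (ENSG00000126261; chromosome 19, 34428352 to 34471251, plus strand), measured 1971, 1896 and 2298 normalised counts in the squamocin libraries and 1867, 1914 and 1888 in the DMSO libraries of SCC15. For SCC25, it measured 2813, 2812 and 2477 normalised counts in the squamocin libraries and 2671, 2518 and 2671 in the DMSO libraries. The groups overlapped in both lines, with log2 fold changes of 0.12 (adjusted p = 0.321) and 0.042 (adjusted p = 0.505, limma), which with equal totals turned to -0.38 and -0.17 and passed as falls. Without squamocin replicate 3 of SCC25 its value there was 0.10 and passed (adjusted p = 0.0169, limma). Of the modifiers, SUMO2 rose in both lines, by 0.85 and 1.06. SAE1, the partner of UBA2, rose by 0.33 in SCC15 (-0.16 and not past the threshold with equal totals; the call was lost in 4 of the 6 fits that left out 1 library) and fell in SCC25 (-0.32).

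NEDD8 has 2 E2 enzymes, UBE2M and UBE2F, which were called higher in both lines under the authors' scaling. Its E1 subunit UBA3 was called higher in SCC25 alone. The SCC25 calls of UBE2M and UBA3 did not stand in all the alternatives given below. UBA3, the catalytic subunit of the NEDD8 E1 (ENSG00000144744; chromosome 3, 69054730 to 69080408, minus strand), measured 1569.6, 1546 and 1793 normalised counts in the squamocin libraries and 1752, 1793 and 1730.2 in the DMSO libraries of SCC15. In SCC25 it measured 766, 775 and 854 normalised counts in the squamocin libraries and 704, 721 and 729 in the DMSO libraries. The SCC15 groups overlapped (-0.11, adjusted p = 0.321, limma), but without squamocin replicate 3 the value was -0.17 and passed (adjusted p = 0.00274). In SCC25 UBA3 rose by 0.15 (adjusted p = 0.0387, limma), a call lost without any DMSO replicate or squamocin replicate 3 (adjusted p = 0.074 to 0.119), and it turned to -0.056 with equal totals. That call was also lost in limma with TMM factors, the replicate block or a trend on exonic length removed, and by edgeR and DESeq2 (adjusted p = 0.0507 to 0.0938). UBE2M, which serves RBX1-bound cullins, measured 2755, 3001 and 4356 normalised counts in the squamocin libraries and 1629, 1548 and 1464 in the DMSO libraries of SCC15. The SCC25 values were 1701, 1696 and 1684 normalised counts in the squamocin libraries and 1523, 1474 and 1422 in the DMSO libraries. Squamocin libraries lay above DMSO libraries in both lines, narrowly in SCC25, and in SCC15 replicate 3 was the highest. UBE2M rose 2.18-fold in SCC15, a log2 fold change of 1.10 (0.90 without squamocin replicate 3), and by 0.20 in SCC25, where it turned to -0.0065 with equal totals (adjusted p = 0.00118 and 0.00168 under the authors' scaling, limma). With a trend on exonic length removed, the SCC25 value of UBE2M was 0.051 and did not pass (adjusted p = 0.337, limma). UBE2F, the E2 that pairs with RNF7, measured 342, 333 and 551 normalised counts in the squamocin libraries and 194, 253 and 236 in the DMSO libraries of SCC15. SCC25 cells gave 499.5, 480.4 and 414 normalised counts in the squamocin libraries and 191, 211 and 197 in the DMSO libraries. The groups were apart in both lines, with SCC15 squamocin replicate 3 above the others. UBE2F rose by 0.81 in SCC15 (0.58 without that replicate) and by 1.21 in SCC25 (adjusted p = 0.0124 and 1e-07, limma). The SCC15 call was lost without DMSO replicate 1 (0.70, adjusted p = 0.0522, limma). UBE2F shares 16.2% of its exonic length with the readthrough gene UBE2F-SCLY, which was near 0. NEDD8 itself rose by 0.89 in SCC25 and by 0.89 in SCC15, where it was 0.56 without squamocin replicate 3 and 0.39 and not past the threshold with equal totals, and where its call was lost in 3 of the 6 fits that left out 1 library. RBX1 rose by 1.09 and 0.90 in SCC15 and SCC25, and RNF7 rose in both lines. NAE1, the partner of UBA3, fell in SCC25 (-0.41) and in SCC15 (-0.31), where the call was lost in 5 of those 6 fits and with the replicate block (adjusted p = 0.057, limma).

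The ISG15 enzymes went opposite ways in the lines. UBA7, the E1 of ISG15 and an interferon-induced gene (ENSG00000182179; chromosome 3, 49805207 to 49813946, minus strand), measured 1594, 1468 and 1284 normalised counts in the squamocin libraries and 974, 937 and 931 in the DMSO libraries of SCC15. In SCC25 it measured 583, 621 and 651 normalised counts in the squamocin libraries and 725, 759 and 763 in the DMSO libraries. Squamocin libraries were all above DMSO in SCC15 and all below in SCC25, a rise of 0.61 (0.69 without squamocin replicate 3, adjusted p = 0.0016) and a log2 fold change of -0.28 (adjusted p = 0.00142, limma). UBE2L6 (UBCH8), the E2 of ISG15 (ENSG00000156587; chromosome 11, 57551656 to 57568284, minus strand), measured 2039, 2063 and 2749.8 normalised counts in the squamocin libraries and 1728, 1598 and 1625 in the DMSO libraries of SCC15. The SCC25 values were 1879, 1859 and 2009 normalised counts in the squamocin libraries and 2675, 2682 and 2636 in the DMSO libraries. The groups separated upward in SCC15 and downward in SCC25, with log2 fold changes of 0.46 (0.31 without squamocin replicate 3, -0.042 with equal totals) and -0.48 (adjusted p = 0.0172 and 7.97e-07, limma). The SCC15 call was lost without DMSO replicate 2 or 3 (adjusted p = 0.0654 and 0.0628, limma). With equal totals, UBA7 in SCC15 was 0.11 and not past the threshold. The modifier ISG15 rose in both lines, by 1.23 and 2.36. Its SCC15 value was 0.81 without squamocin replicate 3. With a trend on exonic length removed it was 0.77 there and did not pass (adjusted p = 0.0504, limma). HERC5, the main E3 ligase of ISG15, had a value of -0.13 in SCC15, not past the threshold. Without squamocin replicate 3 that value was -0.28 and with equal totals -0.63, both past it. In SCC25 HERC5 rose by 2.13.

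UBE2C and UBE2S had the largest log2 fold changes over all libraries, UBE2S in SCC15 and UBE2C in SCC25, although without SCC15 squamocin replicate 3 UBE2V1 led in SCC15 (1.78, against 1.57 for UBE2S and 1.31 for UBE2C). They serve the anaphase-promoting complex (APC/C), UBE2C starting ubiquitin chains and UBE2S extending them. UBE2C (ENSG00000175063; chromosome 20, 45812576 to 45816957, plus strand) measured 5412, 5736 and 8069 normalised counts in the squamocin libraries and 2259, 2247 and 2224 in the DMSO libraries of SCC15. SCC25 cells gave 8443, 8615 and 7909 normalised counts in the squamocin libraries and 1864, 1923 and 1855 in the DMSO libraries. Squamocin libraries were well clear of DMSO in both lines, a ratio of means of 2.86 and 4.42 (log2 fold changes 1.49 and 2.14, adjusted p = 0.000196 and 6.54e-13, limma). UBE2S (ENSG00000108106; chromosome 19, 55399745 to 55407777, minus strand) measured 16106, 17922 and 32976 normalised counts in the squamocin libraries and 6242, 5371 and 5583 in the DMSO libraries of SCC15. For SCC25, it measured 9398, 9199.9 and 9248 normalised counts in the squamocin libraries and 4312, 4021 and 3901 in the DMSO libraries. The SCC15 libraries were spread, with replicate 3 far above the others, and the log2 fold change of 1.89 (standard error 0.26) was 1.57 without it. In SCC25 UBE2S rose by 1.19 (standard error 0.043). Both calls stood with and without equal totals (adjusted p = 0.000672 and 1.07e-10, limma, and 0.000725 and 6.58e-10 with equal totals). The ratio of UBE2S to UBE2C was 2.98 to 4.09 with squamocin and 2.39 to 2.76 with DMSO in SCC15, and 1.07 to 1.17 and 2.09 to 2.31 in SCC25, higher with squamocin in the first and lower in the second without overlap (p = 0.1 in each, exact permutation test).

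Of 17 APC/C subunits and regulators, 11 rose and 3 fell in SCC15 and 10 and 3 in SCC25 (medians 0.49 and 0.31; 3 and 5 in SCC15 and 7 and 7 in SCC25 with equal totals). The co-activator CDC20 rose by 0.83 and 0.30 (SCC25 0.087 and not past the threshold with equal totals), and the subunit ANAPC1 fell in both (-0.43 and -0.33). With a trend on exonic length removed, the SCC15 value of ANAPC1 was -0.17 and did not pass (adjusted p = 0.102, limma). Of 15 other mitotic transcripts, 5 rose and 4 fell in SCC15 and 10 and 3 in SCC25, with medians of -0.0022 and 0.53. With equal totals those counts were 0 and 10 in SCC15 and 8 and 5 in SCC25. CDK1 rose by 0.51 and 1.25 (SCC15 0.011 and not past the threshold with equal totals), and MKI67 fell in both (-1.36 and -0.43). How far the share of mitotic cells moved with UBE2C and UBE2S was not tested.

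UBE2A and UBE2B are the human RAD6 proteins, which ubiquitylate PCNA with RAD18 and histone H2B with RNF20 and RNF40. UBE2B (ENSG00000119048; chromosome 5, 134371179 to 134391992, plus strand) measured 1767, 1521 and 2578 normalised counts in the squamocin libraries and 959, 863 and 896 in the DMSO libraries of SCC15. In SCC25 it measured 2884, 3292 and 2711 normalised counts in the squamocin libraries and 776, 764 and 714 in the DMSO libraries. No groups overlapped, and the means were 2.16 and 3.94 times those of DMSO (log2 fold changes 1.07, 0.86 without squamocin replicate 3, and 1.97, adjusted p = 0.00191 and 6.78e-11, limma). UBE2A also rose, by 0.59 in SCC15 (means 3166 ± 530.4 with squamocin and 2079.7 ± 116 with DMSO, SD, n = 3) and 1.18 in SCC25 (2091 ± 49.2 and 919.6 ± 30.4). UBE2A shares 17.8% of its exonic length with genes of the other strand, and the strand setting of the counting is not given in the sources used here, so its counts are uncertain. UBE2B gained on UBE2A in both lines: their ratio was 0.519 to 0.683 with squamocin and 0.391 to 0.473 with DMSO in SCC15 and 1.33 to 1.54 with squamocin and 0.772 to 0.861 with DMSO in SCC25. Of 11 ligases of RAD6 and DNA repair, 2 rose and 5 fell in each line (medians -0.15 and -0.21; 0 and 8 in SCC15 and 2 and 8 in SCC25 with equal totals). RNF40 fell by 0.52 and 1.42 on the log2 scale, with the SCC15 call lost in 3 of the 6 fits that left out 1 library.

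UBE2N builds K63-linked chains together with UBE2V1 or UBE2V2, which have no active-site cysteine. UBE2N passed the threshold in neither line (-0.10 and 0.12, the latter -0.088 with equal totals; adjusted p = 0.529 and 0.0854, limma), and without squamocin replicate 3 its SCC15 value was -0.24 (adjusted p = 0.000201) and without that of SCC25 0.19 (adjusted p = 0.000344). Its exons share 41.6% of their length with NUDT4 on the other strand. UBE2V2 measured 1371, 1425 and 2312 normalised counts in the squamocin libraries and 1240.4, 1384 and 1275 in the DMSO libraries of SCC15. The SCC25 values were 3048, 3148 and 2490.2 normalised counts in the squamocin libraries and 1269, 1164 and 1168 in the DMSO libraries. The SCC15 groups overlapped (0.35, adjusted p = 0.156; -0.15 with equal totals) and in SCC25 UBE2V2 rose by 1.26 (adjusted p = 1.16e-08, limma). UBE2V1 (ENSG00000244687; chromosome 20, 50081124 to 50115959, minus strand) measured 605, 536 and 244 normalised counts in the squamocin libraries and 146, 172 and 179.8 in the DMSO libraries of SCC15. SCC25 cells gave 348, 302 and 355 normalised counts in the squamocin libraries and 255, 250.1 and 246 in the DMSO libraries. It rose in both lines (1.37 and 0.41, adjusted p = 0.00772 and 0.000981, limma), and SCC15 squamocin replicate 3 held the lowest of the 3 squamocin values, so that the log2 fold change was 1.78 without it. Neither call stood with equal totals (0.88 and 0.21). UBE2V1 is uncertain: 43.2% of its exonic length is shared with the readthrough gene PEDS1-UBE2V1 on the same strand, and counts on its pseudogenes came to 9.36% to 48.5% of its own in SCC15. UBE2T, the E2 of the Fanconi pathway, had 0.49 in SCC15 (adjusted p = 0.0545; 0.26 and adjusted p = 0.000877 without squamocin replicate 3, and past the threshold without replicate 1 too; -0.0059 with equal totals) and rose by 0.72 in SCC25 (limma).

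The UBE2D enzymes work with the widest range of E3 ligases. UBE2D1, UBE2D2 and UBE2D3 rose in both lines, by 0.43, 0.83 and 0.81 in SCC15 and 0.92, 0.76 and 0.71 in SCC25 on the log2 scale. UBE2D1 in SCC15 turned to -0.068 with equal totals, and its call was lost without any DMSO replicate (adjusted p = 0.06 to 0.0609, limma). Of the 4, UBE2D3 was the most abundant per kilobase of exon in SCC25 with squamocin (1104 normalised counts per kb) and UBE2D2 in SCC15 (902). UBE2D4, the least abundant, had 0.020 in SCC15 (adjusted p = 0.94; -0.47 with equal totals) and in SCC25 rose by 0.70 (adjusted p = 0.00146, limma). It shares 15.5% of its exonic length with genes of the other strand.

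Among the UBE2E enzymes, UBE2E2 and UBE2E3 rose and UBE2E1 had smaller values. UBE2E2 (ENSG00000182247; chromosome 3, 23203020 to 23591793, plus strand) measured 1223, 1157 and 1552 normalised counts in the squamocin libraries and 561, 602 and 615 in the DMSO libraries of SCC15. For SCC25, it measured 930.4, 1003 and 909 normalised counts in the squamocin libraries and 331, 356 and 341 in the DMSO libraries. UBE2E3 (ENSG00000170035; chromosome 2, 180967248 to 181076585, plus strand) measured 1253, 1335 and 1939 normalised counts in the squamocin libraries and 878, 933 and 870.3 in the DMSO libraries of SCC15. Its SCC25 values were 1976, 2057 and 1819.6 normalised counts in the squamocin libraries and 754, 760.1 and 754 in the DMSO libraries. For both genes the groups were apart in both lines, with ratios of means of 2.21 and 2.77 for UBE2E2 and 1.69 and 2.58 for UBE2E3 (adjusted p = 0.000272, 7.32e-10, 0.00641 and 2.76e-10, limma). Without squamocin replicate 3 the SCC15 log2 fold changes were 1.00 and 0.53, and with equal totals UBE2E3 did not pass (0.23, adjusted p = 0.107, limma). UBE2E3 shares 9.78% of its exonic length with a gene of the other strand. UBE2E1, next to UBE2E2 on chromosome 3, had 0.38 in SCC15 (adjusted p = 0.0589; 0.20 to 0.47 and past the threshold without any 1 squamocin replicate; -0.12 with equal totals) and rose by 0.26 in SCC25 (limma). It shares 33.8% of its exonic length with NKIRAS1 on the other strand. The ratio of UBE2E2 to UBE2E1 was 0.712 to 0.805 with squamocin and 0.429 to 0.466 with DMSO in SCC15 and 1.03 to 1.19 with squamocin and 0.45 to 0.544 with DMSO in SCC25, without overlap.

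Of the 5 E2 genes tied to ER-associated degradation, 1 rose and 1 fell in SCC15 and 2 rose and 2 fell in SCC25, with none rising in both (0 and 5 in SCC15 and 2 and 2 in SCC25 with equal totals). Of all genes, 30.9% rose and 30.0% fell in SCC15 and 38.3% and 38.5% in SCC25. UBE2G2, an E2 recruited to the ER membrane (ENSG00000184787; chromosome 21, 44768580 to 44802019, minus strand), measured 2398, 2256 and 1989.5 normalised counts in the squamocin libraries and 2241, 2336 and 2226 in the DMSO libraries of SCC15. In SCC25 it measured 1590.0, 1513 and 1483 normalised counts in the squamocin libraries and 2464, 2509.6 and 2412 in the DMSO libraries. The SCC15 groups overlapped (-0.038, adjusted p = 0.743), and in SCC25 UBE2G2 showed the largest fall of the family, -0.69 (limma, adjusted p = 2.69e-08, standard error 0.046). UBE2G1, its paralog (ENSG00000132388; chromosome 17, 4269259 to 4366628, minus strand), measured 876, 988 and 1015 normalised counts in the squamocin libraries and 1247, 1308 and 1282 in the DMSO libraries of SCC15. The SCC25 values were 1884, 1960.2 and 1774 normalised counts in the squamocin libraries and 1478, 1384 and 1430.5 in the DMSO libraries. UBE2G1 was the only gene of the family that fell in SCC15 (-0.42, adjusted p = 0.00517; -0.46 without squamocin replicate 3), and it rose in SCC25 (0.39, adjusted p = 1.92e-05, limma). The ratio of UBE2G1 to UBE2G2 was alike with DMSO, 0.557 to 0.576 in SCC15 and 0.552 to 0.6 in SCC25, and with squamocin was 0.366 to 0.511 and 1.19 to 1.29, lower in the first and higher in the second without overlap (p = 0.1 in each, exact permutation test).

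UBE2J1, anchored in the ER membrane (ENSG00000198833; chromosome 6, 89326625 to 89352848, minus strand), measured 1032, 1064 and 1105 normalised counts in the squamocin libraries and 876, 929 and 875 in the DMSO libraries of SCC15. SCC25 cells gave 1566, 1540.1 and 1333 normalised counts in the squamocin libraries and 1911, 1854 and 1892 in the DMSO libraries. Every squamocin library lay above DMSO in SCC15 (0.26, adjusted p = 0.0255) and below it in SCC25 (-0.35, adjusted p = 0.000172, limma). With equal totals the SCC15 value turned to -0.24 and passed as a fall (adjusted p = 0.0437, limma), and the call under the authors' scaling was lost without squamocin replicate 2 or any DMSO replicate (adjusted p = 0.0608 to 0.108). This is the gene whose promoter held the unfolded protein response element shown above. UBE2J2 passed the threshold in neither line (-0.042 and 0.094, the latter -0.11 with equal totals), although without squamocin replicate 3 it was -0.22 in SCC15 (adjusted p = 0.00126) and, without that of SCC25, 0.15 (adjusted p = 0.0096, limma). UBE2K, which builds K48-linked chains, had -0.090 in SCC15 (-0.25 and adjusted p = 0.000215 without squamocin replicate 3) and rose by 0.66 in SCC25 (limma).

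Of the remaining E2 genes, UBE2W, which attaches ubiquitin to the N-terminus of proteins, measured 600.5, 608 and 800.0 normalised counts in the squamocin libraries and 473, 499.7 and 469 in the DMSO libraries of SCC15. For SCC25, it measured 2253, 2391 and 1836 normalised counts in the squamocin libraries and 759, 809 and 719 in the DMSO libraries. It rose in both lines without overlap, by 0.46 (0.33 without squamocin replicate 3, -0.033 with equal totals) and 1.49 (adjusted p = 0.0157 and 5.97e-09, limma), and its SCC15 call was lost without DMSO replicate 1 or 3 (adjusted p = 0.0575 and 0.0602). UBE2R2, an E2 of SCF ligases, rose by 0.94 and 0.74, and its paralog CDC34, which the rule leaves out, by 1.41 and 1.06. UBE2Q2 rose by 0.57 and 0.85, with counts on its pseudogenes and on the member UBE2Q2L together at 12.2% to 36.7% of its own across the libraries. UBE2H, the E2 of the CTLH ligase, rose by 0.26 and 0.14, which turned to -0.24 and -0.069 with equal totals, and its SCC15 call was lost without any single library other than squamocin replicate 3 (adjusted p = 0.0684 to 0.109, limma). UBE2Q1 had 0.30 in SCC15 (adjusted p = 0.0823; 0.16 and adjusted p = 0.0184 without squamocin replicate 3; -0.20 with equal totals) and rose by 0.19 in SCC25 (limma; -0.023 with equal totals). UBE2L3, the E2 of parkin and of linear chain assembly, had 0.29 and 0.048, and UBE2O, which works as both E2 and E3, had -0.12 and 0.089, past the threshold in neither line. With equal totals UBE2L3 turned to -0.21 and -0.16, and UBE2O in SCC25 to -0.12. UBE2L3 passed in SCC25 without squamocin replicate 3 (0.091, adjusted p = 0.0335) and UBE2O without squamocin replicate 2 (0.15, adjusted p = 0.0346, limma). UBE2Q2L had 0.45 in SCC15 (standard error 0.75, adjusted p = 0.625) at a mean of 14.5 normalised counts with squamocin and 10.6 with DMSO. UBE2F-SCLY, UBE2L5 and UBE2QL1 stayed under the mean of 10 where they were listed, as did UBE2Q2L in SCC25.

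The response itself differed between the lines for 19 of the 38 genes tested in both. As a contrast of the 4 group means (SCC25 response minus SCC15 response, limma, adjusted over all 14454 genes tested in both lines), 11 were above 0 (all genes, 26.0%) and 8 below (all genes, 26.1%). UBE2W differed most, by 1.03 (adjusted p = 0.000243), followed among those above 0 by UBE2V2 at 0.92 (adjusted p = 0.00468) and UBE2B at 0.90 (adjusted p = 0.00313). UBE2V1 at -0.96 (adjusted p = 0.0373), UBE2L6 at -0.93 (adjusted p = 0.000128), UBE2M at -0.89 (adjusted p = 0.00124) and UBA7 at -0.885 (adjusted p = 4.62e-05) led those below. UBA6 (0.63) and UBE2Z (0.39) rose further in SCC25, and UBA1 differed by -0.53. Without SCC15 squamocin replicate 3 the counts became 19 above and 9 below, and all 19 genes called over all libraries kept their call. No share of all genes was counted for that fit, so the calls gained have no background here. UBE2V1 lost its call in 10 of the 12 fits that left out 1 library (adjusted p = 0.0562 to 0.0864) and UBE2S in 9 (adjusted p = 0.0563 to 0.099), all limma. With equal totals, which shift the lines unequally, 20 were above and 4 below, and UBA1, UBE2G2, UBE2S and UBE2V1 lost their call. The median of all genes then moved by -0.49 in SCC15 and -0.21 in SCC25, and the share of all genes called was not counted. These counts therefore cannot be read as a result about the E1 and E2 genes alone.

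**Figure D4:**
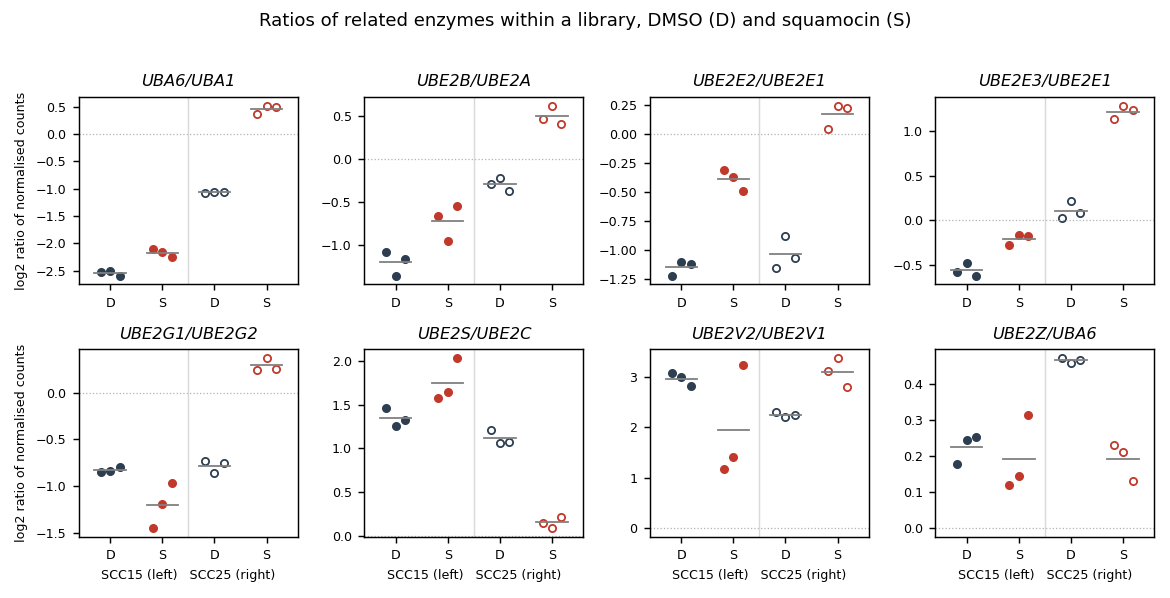
Log2 ratio of the normalised counts of 2 related enzymes within each library (vertical axis, points are libraries, replicates 1 to 3 from left to right, grey lines are means) in DMSO (D, dark) and squamocin (S, red) libraries of SCC15 (filled) and SCC25 (open). UBA6 against UBA1, UBE2B against UBE2A, and UBE2E2 and UBE2E3 against UBE2E1 were higher with squamocin in both lines, while UBE2G1 against UBE2G2, UBE2S against UBE2C and, with overlapping groups in SCC15, UBE2V2 against UBE2V1 had means that moved opposite ways.

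Ratios of paralogs and partners within a library were compared for 16 pairs in each line, since they do not depend on the scaling. The groups were apart for 10 pairs in SCC15 (7 higher and 3 lower with squamocin) and 14 in SCC25 (9 and 5). Ratios of other gene pairs were not computed, so these counts have no background of their own. Of single genes tested, 35.7% were separated upward and 34.9% downward in SCC15, and 39.4% and 39.6% in SCC25. With 3 libraries against 3 the smallest p is 0.1, and adjusted over 16 pairs the smallest were 0.16 and 0.114, so none could pass 0.05. Per kilobase of exon (GENCODE release 44), UBE2S was the most abundant of the family in SCC15 (2048 normalised counts per kb with DMSO and 7979.6 with squamocin), and UBE2C in SCC25 (1463 and 6472). UBE2B moved from place 23 to place 9 in SCC25 and UBE2G2 from 15 to 30. Exonic length went with the response weakly: Spearman's rho between length and log2 fold change was -0.26 over 39 members in SCC15 and -0.10 over 38 in SCC25, against -0.22 and -0.093 over all genes with a length. Between length and the offset of SCC15 squamocin replicate 3 from replicates 1 and 2 it was -0.56 over members and -0.31 over all genes, with shorter transcripts higher in replicate 3. With the trend on length removed, 23 members rose and 1 fell in SCC15.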

How the data were processed

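RNA from SCC15 and SCC25 cells given squamocin or DMSO was sequenced in 3 libraries per group. Per the labels and the submitters' processing notes, reads were aligned with HISAT2 2.0.5 to GRCh38 and counted with featureCounts 1.5.0-p3. The annotation release and the strand setting are not given in the sources used here. The deposited values are a signal on a normalised count scale: the authors divided each count by 1 size factor per library, within each cell line. The authors' own fold changes and p-values, also in the tables, were not used. Whole reads were recovered for 100% of genes in every library (tolerance 0.01 of a read) and served only alternative tests. Depth was 16665563 to 22748845 recovered reads per library.

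Genes with a mean of at least 10 normalised counts were fitted with limma 3.58.1 (trend) in R 4.3.3 on log2(normalised count + 1), a scale that understates the change of low genes, and p-values were adjusted by Benjamini-Hochberg over all genes tested in a line, with a threshold of 0.05. The difference between lines was a contrast over both tables, which were normalised separately, so levels across lines are not comparable. Scripts were tested on simulated data. Python 3.11.15, pandas 2.3.3, scipy 1.17.1 and matplotlib 3.10.9 were used for the exact permutation tests, tables and plots. Values by library were given for the E1 genes, for UBE2Z, UBE2B, UBE2E2, UBE2E3, UBE2S and UBE2C, for the 5 largest rises and falls per line, for genes called in opposite directions and for the 5 largest differences. UBE2F and UBE2M were added to complete their pathway. Some members and related genes stay in the counts but are not reported here by name. The members and lists were chosen with earlier results of these data known. Alternatives were other pseudocounts (0.1 and 10), other filters, TMM factors, equal library totals, a replicate block, count tests of the recovered reads (DESeq2 1.42.0, edgeR 4.0.16), a fold threshold and leaving out each library. Removal of a trend on exonic length was chosen after seeing the data.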

Additional observations from a re-analysis of the deposited data

Results flagged for a closer look

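The response to squamocin differed between SCC25 and SCC15 for 19 of 38 E1 and E2 genes, 11 above 0 and 8 below, in the test of the difference itself (limma, adjusted over the 14454 genes tested in both lines), where 26.0% of all genes were above and 26.1% below, so the share among the E1 and E2 genes lay near that of all genes. Each value is the SCC25 log2 fold change minus that of SCC15. Among the ubiquitin E1 genes and the E2 that pairs with UBA6, the difference was 0.628 for UBA6, 0.385 for UBE2Z and -0.527 for UBA1. For the ISG15 enzymes it was -0.885 (UBA7) and -0.932 (UBE2L6), and for UBE2M of the NEDD8 pathway -0.894. The APC/C enzymes parted, with 0.654 for UBE2C and -0.702 for UBE2S. In the RAD6 and K63-chain group, UBE2A differed by 0.59, UBE2B by 0.9, UBE2V2 by 0.915 and UBE2V1 by -0.959. The ER group gave 0.803 for UBE2G1, 0.754 for UBE2K, -0.649 for UBE2G2 and -0.609 for UBE2J1. UBE2D1 differed by 0.495, UBE2E3 by 0.636 and UBE2W by 1.03. Groups of 3 libraries were too small for a check of single outlying values.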

How the results depend on the processing

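With equal library totals, 10 members were higher and 10 lower in SCC15 with a median log2 fold change of -0.0059, the SCC25 median was 0.48, differences between the lines numbered 20 above and 4 below, and 9 genes were higher and 3 lower in both lines. In SCC15 UBA1 (-0.17), UBA2 (-0.38), UBE2D1 (-0.068), UBE2D4 (-0.47), UBE2E1 (-0.12), UBE2H (-0.24), UBE2J1 (-0.24), UBE2L3 (-0.21), UBE2L6 (-0.042), UBE2Q1 (-0.20), UBE2T (-0.0059), UBE2V2 (-0.15) and UBE2W (-0.033) then changed sign, and in SCC25 UBA2 (-0.17), UBA3 (-0.056), UBE2H (-0.069), UBE2J2 (-0.11), UBE2L3 (-0.16), UBE2M (-0.0065), UBE2N (-0.088), UBE2O (-0.12) and UBE2Q1 (-0.023). Requiring an absolute log2 fold change above 1 left 6 higher and 0 lower in SCC15, 12 and 0 in SCC25, 1 and 0 for the difference and 4 higher in both. Leaving out 1 library gave 18 to 27 higher and 1 to 5 lower in SCC15 (median 0.33 to 0.58), 27 to 31 and 5 in SCC25 (median 0.62 to 0.73), 11 to 19 above and 6 to 9 below for the difference, and 16 to 23 higher and 0 lower in both. The 5 lower in SCC15 and the 19 above came without SCC15 squamocin replicate 3. Shares of all genes were not counted for the fits that left out 1 library or for the fold threshold. They were also not counted for the difference, or for genes called in both lines, with equal totals. The log2 ratio of UBA6 to UBA1 shifted by 0.33 to 0.41 in SCC15 and 1.49 to 1.57 in SCC25 in those fits. The causes were not tested.

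With the replicate block the counts were 21 higher and 1 lower in SCC15 (without UBA1, UBE2H and UBE2J1), 27 and 5 in SCC25 (without UBA3), and 12 above and 8 below for the difference (with UBE2D4). On the recovered reads, edgeR called 22 members higher and 1 lower in SCC15 and 27 and 5 in SCC25, and DESeq2 26 and 1 and 27 and 5. Samples with the same number did not deviate together from the mean of their group (correlations over all genes tested of -0.051 to 0.0078, 6 pairs). A correlation over all genes cannot exclude that the numbers pair the samples, and the labels do not say.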

Other observations

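Of 12 E1 and E2 genes that the name rule leaves out, 6 rose and 4 fell in SCC15, and the same numbers did in SCC25 (limma; 2 and 6 in SCC15 and 4 and 6 in SCC25 with equal totals). Of all genes tested, 30.9% rose and 30.0% fell in SCC15 and 38.3% and 38.5% in SCC25, which is the background for this and the next lists. MOCS3, the E1 of the modifier URM1, had the lowest values of the list, with log2 fold changes of -3.71 in SCC15 and -2.67 in SCC25. ATG7, the E1 of the autophagy modifiers, fell in SCC25 (-0.75). In SCC15 it was 0.27, a call lost in 5 of the 6 fits that left out 1 library and under TMM, edgeR and the replicate block. With equal totals the SCC15 value of ATG7 turned to -0.23 and passed as a fall (adjusted p = 0.0437, limma). ATG3, the E2 of the LC3 family, rose in both (0.56 and 1.02; SCC15 0.061 and not past the threshold with equal totals, and lost in 2 of those 6 fits), and ATG12 did too (1.22 and 0.56). Of 13 modifiers tested, 12 rose and 0 fell in SCC15 and 11 rose and 2 fell in SCC25 (medians 1.22 and 0.89; 9 and 0 in SCC15 and 10 and 2 in SCC25 with equal totals).

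Of 18 ligases and cofactors of the ubiquitin-like modifiers, 7 rose and 5 fell in SCC15 and 13 and 2 in SCC25 (4 and 9 in SCC15 and 12 and 3 in SCC25 with equal totals). DCUN1D3, a co-ligase for NEDD8, rose in both (1.14 and 2.15), whereas DCUN1D1 fell in SCC15 (-0.55) and rose in SCC25 (0.69). UFL1, the ligase of UFM1, fell in SCC15 (-0.45) and rose in SCC25 (0.66), and its partner DDRGK1 rose in both (0.59 and 1.02; SCC15 0.094 and not past the threshold with equal totals). These lists were chosen with earlier results of these data known.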
